A study of Mus musculus with 18 samples.

Results

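The genes described here are the neighbours of Dmrt3 on mouse chromosome 19. They are all genes that lie at least partly within 5 Mb of Dmrt3 (mm10 chr19:25610301-25623921), apart from the Dmrt genes themselves, and that held at least 10 counts in at least 4 of the 18 libraries. The window holds 159 annotated genes, of which 102 were listed in the count files. Of these 102, 3 were Dmrt genes and 46 stayed under the count minimum, which left 53 genes of the 38355 listed. All 53 entered the test. They comprised 47 protein-coding genes, 5 processed pseudogenes and 1 antisense RNA, with 24 at lower and 29 at higher coordinates than Dmrt3.

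RNA was measured by RNA-seq in whole dissected cortical tissue of C57BL/6 embryos at stage E12.5. The 4 genotypes were wild type (WT, 4 libraries), Dmrt3 knockout (Dmrt3 KO, 5), Dmrt5 knockout (Dmrt5 KO, 4) and the Dmrt3;Dmrt5 double knockout (double KO, 5). The gene named Dmrt5 in the labels carries the symbol Dmrta2 and lies on chromosome 4. The sources used here do not say how the alleles were made or in which strain, nor whether each library came from its own embryo or litter. The p-values therefore measure the spread among the libraries only, which may be technical.

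Dmrt3 and Dmrta2 are transcription factors with a doublesex-type zinc-finger DNA-binding domain, expressed by progenitors of the medial and dorsal cortex. A mutant allele is inherited together with the DNA around it. Genes close to the mutated locus can therefore differ between mutant and control animals because of linked sequence or because a regulatory element was removed, as well as through loss of the protein. Genes next to Dmrta2 carry no such link to the Dmrt3 allele. A difference carried by the Dmrt3 allele can be sought both in Dmrt3 KO against WT and in the double KO against Dmrt5 KO, which share no library. Linked DNA and loss of the protein cannot be told apart by these counts alone.

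Libraries held 19602718 to 33072896 counts. Levels are normalised read counts (CPM), scaled with edgeR. The 5 markers of cortical progenitors (Emx1, Emx2, Lhx2, Pax6 and Sox2) summed to between 1000 and 1750 CPM in every library. Dmrt3 stood at 52 to 61.8 CPM in WT and 30.3 to 48.5 in Dmrt5 KO, against 0.232 to 0.398 in Dmrt3 KO and at most 0.383 in the double KO. Dmrta2 stood at 155 to 295 CPM in the libraries that carry it and at 1.66 to 25.1 in the others, the highest of these being Dmrt5 KO replicate 1. The labels of both alleles therefore matched the counts. Dmrt1, the neighbour of Dmrt3 in the Dmrt cluster and not among the 53, stood at 2.55 to 4.22 CPM in WT, at least 9.4 in each Dmrt3 KO library, 2.42 to 2.87 in Dmrt5 KO and 2.45 to 3.91 in the double KO. It was higher in Dmrt3 KO than in WT by 1.73 on the log2 scale (SE 0.19, edgeR adjusted p = 0.000553), and the difference between the double KO and Dmrt5 KO was 0.24 (SE 0.19, adjusted p = 0.997). Dmrt2 was listed at 0.039 to 0.434 CPM and was too low to test.

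The neighbours covered a wide range of levels. In WT, 9 of the 53 lay under 1 CPM, 18 from 1 to 10, 16 from 10 to 50 and 10 at 50 or more. Per kb of exon, the highest were Ak3, a mitochondrial adenylate kinase, at 27.6 CPM per kb, Fam122a at 24.2, Rcl1, which takes part in ribosomal RNA processing, at 23.5, and Gldc, the glycine decarboxylase of the glycine cleavage system, at 19.5. The lowest was 4430402I18Rik at 0.0888 CPM per kb. Several of the low genes give imprecise fold changes for that reason.

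With the Dmrt3 allele, no coding gene among the 53 was called, and both neighbours that were called are processed pseudogenes. The comparison is the mean of Dmrt3 KO against WT and of the double KO against Dmrt5 KO, so that both Dmrt5 backgrounds weigh the same. Genes count as called where the p of edgeR's quasi-likelihood test, adjusted over all 16236 tested genes, is under 0.05. In all, 0.671% of tested genes were called, 5 higher and 104 (0.641%) lower. Among the 53 neighbours 2 were called (3.77%), both lower: Gm6563 and Gm5822. Among the 53, 7 had an unadjusted p under 0.05 (13.2%, against 4.33% of all genes), and 4 of these 7 are pseudogenes. Among the 47 coding neighbours 0 were called by edgeR, DESeq2 called 0 as well, and the lowest adjusted p was 0.33. Of these 47, 3 had an unadjusted p under 0.05 (6.38%, against 2.39% of all coding genes). Over all coding genes 0.224% were called. They include Dmrt1, which is left out of the 53 and was called higher at 0.98 (SE 0.14, edgeR adjusted p = 0.00261).

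In this mean of both backgrounds, the coding neighbours differed little between libraries with and without Dmrt3. Of the 47, 23 lay above 0 and 24 below, and 44 changed by less than 1.5-fold. Their median absolute log2 change was 0.09, against 0.08 over all coding genes. Opposite changes on the backgrounds cancel in this mean. It was 0.21 in Dmrt3 KO against WT (0.2 over all coding genes). In the double KO against Dmrt5 KO it was 0.18 (0.13 over all coding genes). The values of the mean ran from -1.04 for 1700028P14Rik, which is under 1 CPM in most libraries, to 0.62 for Cd274. The median SE was 0.16, and for 41 of the 47 the interval of 2 SE on either side stayed within a 2-fold change. In whole tissue, fewer cells of a type and less RNA per cell cannot be told apart, and opposite changes in different cells could cancel.

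**Figure D1:**
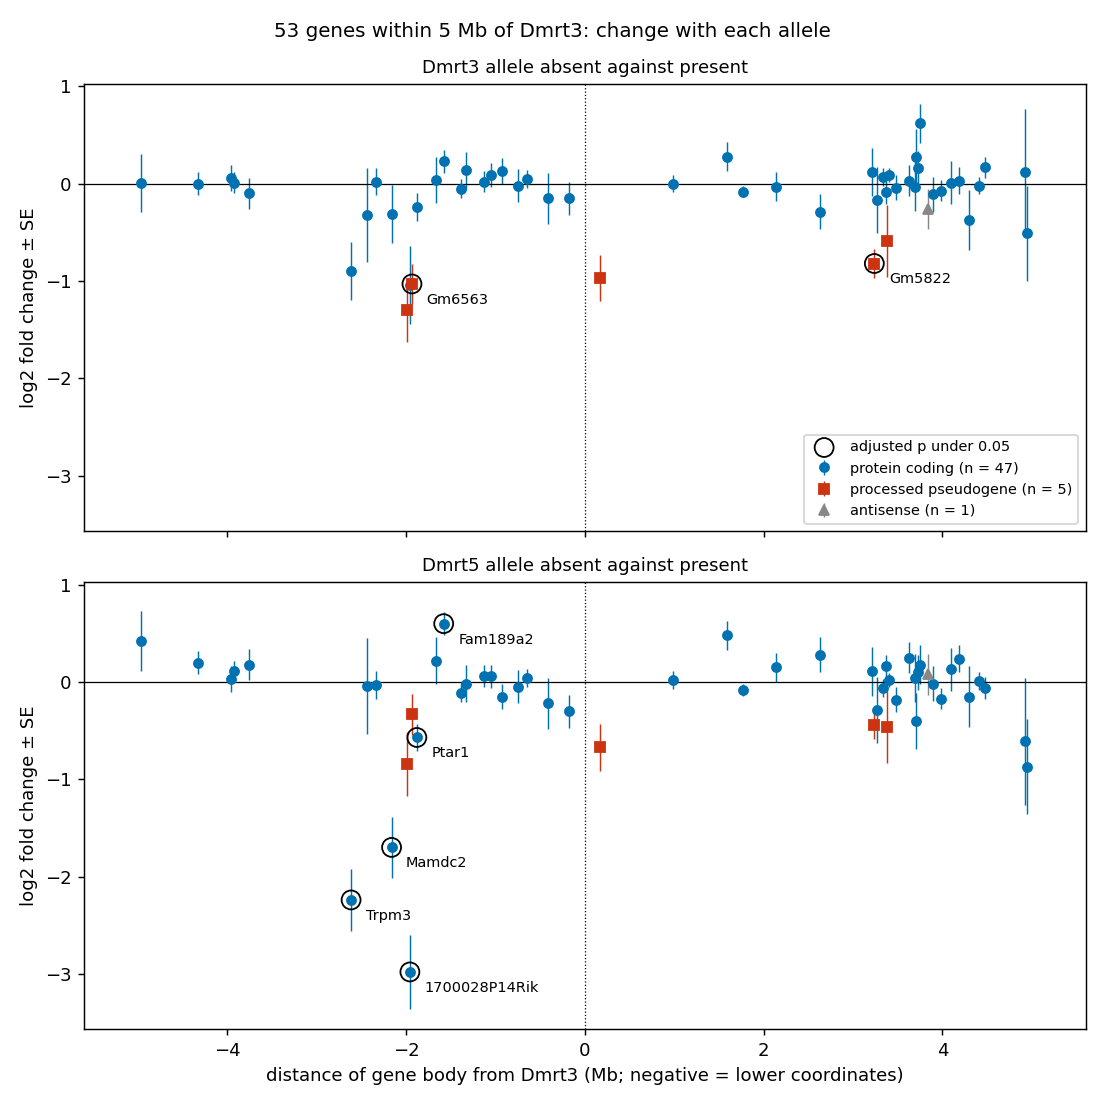
Log2 fold change with its SE (vertical axis) of the 53 neighbours against the distance of the gene body from Dmrt3 in Mb (horizontal axis), for the Dmrt3 allele (top) and the Dmrt5 allele (bottom); circles are coding genes, squares processed pseudogenes and the triangle an antisense RNA, and rings mark adjusted p under 0.05. In the top panel the ringed genes are the pseudogenes Gm6563 and Gm5822, and all 5 squares lie below 0; in the bottom panel 5 coding genes are ringed, all at lower coordinates than Dmrt3.

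The neighbours were also read by their distance from Dmrt3. Of the 7 neighbours within 1 Mb 0 were called by edgeR, with 1 at an unadjusted p under 0.05, the pseudogene Gm8825. From 1 to 2 Mb 1 of 12 was called, and from 2 to 5 Mb 1 of 34. The median absolute log2 change was 0.13, 0.18 and 0.10 in these 3 bins. The rank correlation of distance with absolute log2 change was -0.133 across all 53 and -0.0678 across the 47 coding neighbours, given as a description since neighbouring genes share libraries. Outside the window, 3 of 471 tested genes of chromosome 19 were called (0.637%), namely the pseudogenes Pcna-ps2 and Gm10819 and the antisense RNA Emx2os, at 16.3, 9.3 and 33.8 Mb from Dmrt3.

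The nearest coding gene on the lower side is Kank1 (chr19:25236975-25434496, 176 kb away), an ankyrin-repeat protein that regulates actin assembly. Kank1 stood at 11.2, 13.9, 9.52 and 14.8 CPM in WT, 8.24, 7.56, 9.6, 10.7 and 11.7 in Dmrt3 KO, 8.01, 8.21, 10.8 and 7.47 in Dmrt5 KO, and 5.77, 6.35, 8.05, 14.4 and 10.6 in the double KO. The genotypes overlapped, and WT held the highest library. The Dmrt3 allele value was -0.15 (SE 0.17, edgeR adjusted p = 1.0). Next come Dock8, an exchange factor for Cdc42, at -0.15 (SE 0.26), Cbwd1 at 0.05 (SE 0.09) and Pgm5, a phosphoglucomutase-related protein of cell adhesions, at -0.02 (SE 0.17), at 408, 649 and 748 kb.

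On the higher side the nearest coding gene is Smarca2 (chr19:26605050-26778322, 981 kb away), an ATPase of the SWI/SNF chromatin remodelling complex. Smarca2 stood at 102, 65.6, 80.2 and 90.3 CPM in WT, 84.2, 102, 87, 88.4 and 75.2 in Dmrt3 KO, 90.6, 82.7, 89.7 and 92.3 in Dmrt5 KO, and 108, 78.6, 78.3, 75.9 and 89.2 in the double KO. The mean over the 8 libraries with Dmrt3 was 86.7 CPM and over the 10 without it also 86.7. Vldlr, a reelin receptor that guides migrating cortical neurons, had a value of 0.28 (SE 0.15, edgeR adjusted p = 1.0), and Pum3, an RNA-binding protein of the nucleolus, of -0.08 (SE 0.06).

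The neighbours were also read by role. Of the 53, 37 belong to 1 of 7 role groups, and with the Dmrt3 allele no member of any group was called by edgeR at its adjusted threshold. Among regulators of chromatin and transcription, 5 genes had a median log2 change of -0.03, with Klf9 at -0.32 (SE 0.48), Glis3 at -0.29 (SE 0.18) and Uhrf2, which binds modified cytosine, at -0.02 (SE 0.09). Among 8 signalling genes the median was 0.03, with Prkg1, a cGMP-dependent kinase, at -0.51 (SE 0.49) and Pip5k1b, a lipid kinase, at 0.09 (SE 0.12). WT replicate 4 alone sets the sign of Prkg1: it held 5.7 CPM against 0.801 to 0.889 in the other WT libraries, and without it the value was 0.14.

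The remaining role groups held no called gene either by edgeR. Among 5 genes of the cytoskeleton and cell junctions the median was -0.15. Among 9 metabolic and transport genes it was 0.09, with Gldc at 0.17 (SE 0.11), Plgrkt at 0.16 (SE 0.18) and Ak3 at 0.09 (SE 0.07). Among 7 genes for upkeep of genome, RNA and protein the lowest was Ptar1 at -0.24 (SE 0.14) and Rcl1 stood at -0.04 (SE 0.13). The 2 immune genes with enough counts were Cd274, the ligand of the inhibitory receptor PD-1, at 0.62 (SE 0.20, edgeR adjusted p = 0.33) and Il33, an alarmin cytokine, at -0.37 (SE 0.31). The cation channel Trpm3 stood at -0.90 (SE 0.30, edgeR adjusted p = 0.435), the coding value nearest to a call after Cd274 by unadjusted p. Trpm3 was called at -0.92 (adjusted p = 0.011) when the gene length slope of each library was a covariate.

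The 5 pseudogenes are intronless copies of messenger RNAs inserted into the genome, and 2 of them are the neighbours called lower without Dmrt3. Their sequences are shown because reads from the coding gene and from its copy differ at few bases. For 4 of the 5 pairs, 80 bases are given 5′ to 3′ on the strand of the pseudogene, with the bases that differ in capitals, from GENCODE M21 transcripts on GRCm38. The closest coding genes lie on chromosomes 10 (Sarnp), 12 (Rps7), 9 (Eef1a1), 6 (Gapdh) and 11 (Rpl26).
Gm6563, chr19:23676095-23676174, plus strand: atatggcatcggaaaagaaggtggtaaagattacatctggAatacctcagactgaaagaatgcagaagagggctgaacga
Sarnp: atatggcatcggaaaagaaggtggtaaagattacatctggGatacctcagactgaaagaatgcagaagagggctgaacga
Gm9493, chr19:23620041-23620120, plus strand: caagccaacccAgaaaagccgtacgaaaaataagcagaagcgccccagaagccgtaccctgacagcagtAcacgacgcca
Rps7: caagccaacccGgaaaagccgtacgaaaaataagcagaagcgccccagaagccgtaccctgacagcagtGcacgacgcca
Gm5822, chr19:28863238-28863317, minus strand: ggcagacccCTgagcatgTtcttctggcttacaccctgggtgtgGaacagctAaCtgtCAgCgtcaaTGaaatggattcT
Eef1a1: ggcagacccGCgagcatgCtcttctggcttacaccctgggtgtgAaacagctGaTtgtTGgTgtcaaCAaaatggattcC
Gm8825, chr19:25796271-25796350, minus strand: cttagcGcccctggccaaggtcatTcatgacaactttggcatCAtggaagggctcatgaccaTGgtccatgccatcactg
Gapdh: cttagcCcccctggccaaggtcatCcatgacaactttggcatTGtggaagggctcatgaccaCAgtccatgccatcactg

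Gm6563 (ENSMUSG00000051255, chr19:23675848-23676480) is the closest copy. Over all 633 of its bases it has 1 mismatch to Sarnp, which binds DNA and RNA and takes part in mRNA export. The difference is G288A, written as the base of the coding gene, the position from the 5′ end of the pseudogene, and the base of the pseudogene. Gm9493 has 3 mismatches over 570 bases to Rps7, a protein of the small ribosomal subunit, and the stretch above holds 2 of them, G304A and G362A. Gm5822 (ENSMUSG00000089993, chr19:28862330-28863707) is an older copy of Eef1a1, the translation elongation factor, with 60 mismatches over 1390 aligned positions, 12 of them in the stretch above. Gm8825 is a copy of Gapdh with 39 mismatches over 1008 positions, and 102 genes are at least 90% identical to it. Gm10136 has 5 mismatches over 435 bases to Rpl26, of the large ribosomal subunit. How the authors counted reads that match several genes is not given in the sources used here. The values of these pseudogenes, and of Gm6563 and Gm9493 most of all, are uncertain, and whether reads of the coding genes entered them was not tested.

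Gm6563 stood at 3.06, 4.59, 4.61 and 2.26 CPM in WT and 2.67, 2.07, 3.19 and 4.05 in Dmrt5 KO. It stood at 1.88, 2.3, 1.97, 1.41 and 1.72 in Dmrt3 KO and 1.56, 2.33, 1.29, 1.15 and 0.702 in the double KO. The libraries without Dmrt3 were lower as a group, and the ranges overlapped between 2.07 and 2.33 CPM. Its log2 change with the Dmrt3 allele was -1.03 (SE 0.21, edgeR adjusted p = 0.0302). The call was lost in 9 of 18 runs that left out 1 library (WT 2 or 3, Dmrt3 KO 1, 3, 4 or 5, Dmrt5 KO 4 or 5, or double KO 3), with adjusted p between 0.0136 and 0.0965 over all 18.

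Gm5822 stood at 3.93, 4.96, 4.7 and 2.95 CPM in WT and 2.23, 2.4, 3.51 and 3.51 in Dmrt5 KO. It stood at 1.8, 2.25, 2.13, 2.43 and 2.59 in Dmrt3 KO and 1.81, 1.83, 1.78, 2.04 and 1.17 in the double KO. WT did not overlap Dmrt3 KO, which held for 2.37% of all tested genes, and Dmrt5 KO did not overlap the double KO, which held for 1.77%. Such separation was more frequent among the 606 processed pseudogenes tested, with 90 in the former comparison and 88 in the latter. All libraries with Dmrt3 together overlapped those without it between 2.23 and 2.59 CPM. The log2 change was -0.82 (SE 0.15, edgeR adjusted p = 0.0135), and the call was kept in 18 of 18 runs that left out 1 library, with adjusted p from 0.00709 to 0.0461.

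The other pseudogenes did not pass the test. Gm9493 stood at 0.622 to 2.94 CPM with Dmrt3 and 0.078 to 1.03 without it, a log2 change of -1.30 (SE 0.33, edgeR adjusted p = 0.0979). Gm8825, the gene closest to Dmrt3 among all 53 at 172 kb, stood at 0.373 to 1.17 CPM with Dmrt3 and 0.128 to 0.733 without it, with a value of -0.97 (SE 0.24, edgeR adjusted p = 0.0942). Both were called when WT replicate 4 was left out and in the fit with the length slope covariate. Gm9493 was also called without double KO replicate 2 and by DESeq2. Gm10136 was at -0.59 (SE 0.37, adjusted p = 1.0).

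The closest coding genes all had values above 0, with intervals that include 0. Sarnp stood at 20.6 to 50.9 CPM in WT and its Dmrt3 allele value was 0.07 (SE 0.18), and Eef1a1 was at 0.05 (SE 0.10). Rps7 was at 0.23 (SE 0.26), Gapdh at 0.04 (SE 0.15) and Rpl26 at 0.11 (SE 0.27), all with an edgeR adjusted p of 1.0. Over the 18 libraries Rps7 stood at 3.99 to 15.1 CPM and Gapdh at 12.6 to 24.9, against 1580 to 2670 for Eef1a1. Whether reads shared with copies are missing from these counts was not tested, so the values may not cover all RNA of these genes. Of the genes that hold a pseudogene in an intron, Slc1a1, a glutamate transporter gene with Gm5822 on its opposite strand, was at 0.12 (SE 0.25), and Cdc37l1, which holds Gm10136, at -0.09 (SE 0.12). 1700028P14Rik, which holds Gm9493, was at -1.04 (SE 0.40, adjusted p = 0.673). Exons do not overlap in these 3 pairs. The library kit does not mark strand, and whether unspliced reads of a host entered the count of its pseudogene was not tested.

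**Figure D2:**
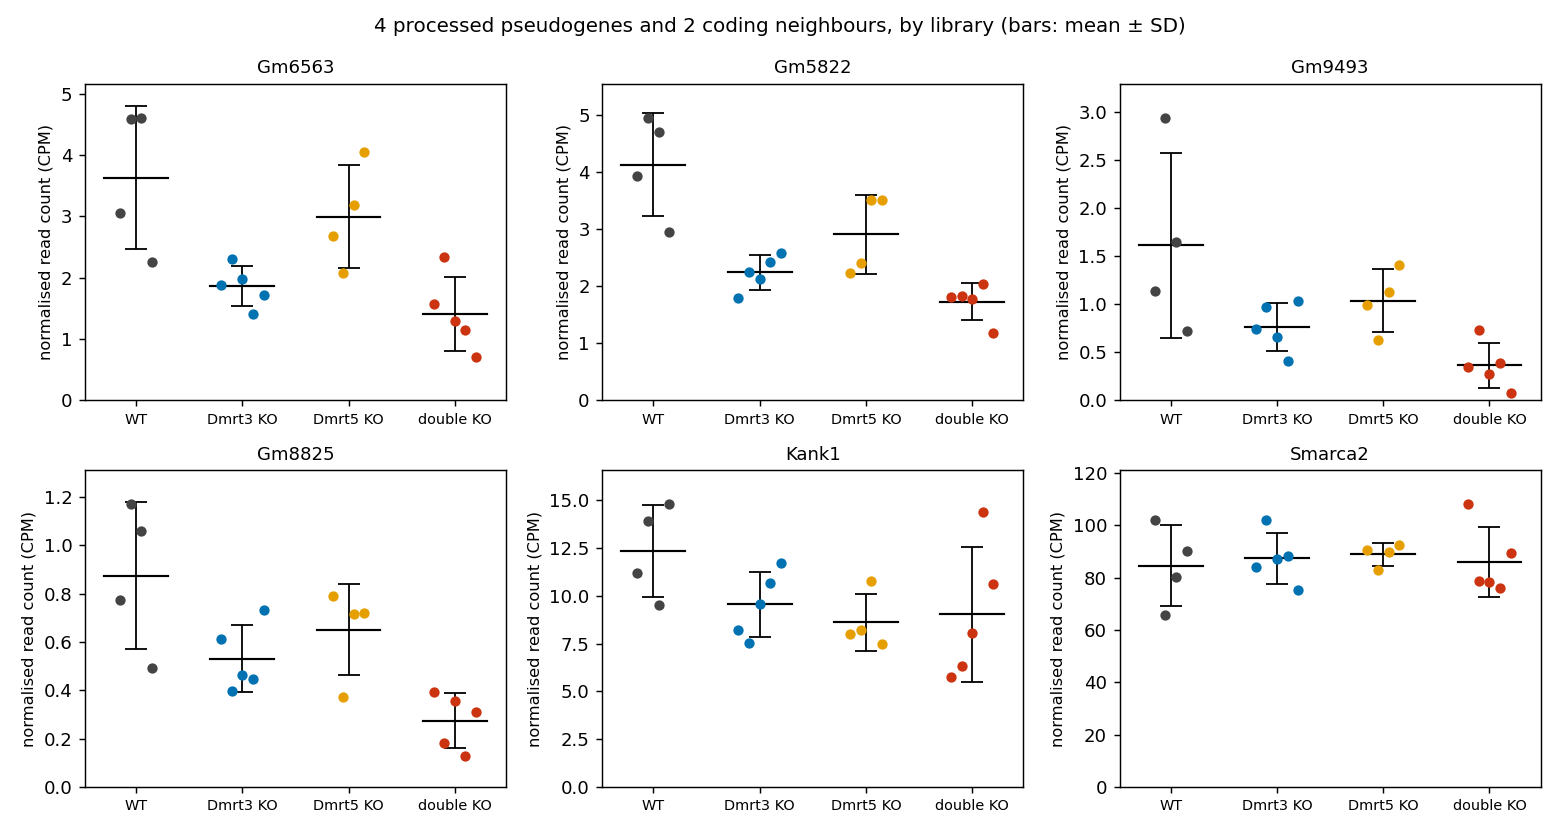
Normalised read count (CPM, vertical axis) of 4 processed pseudogenes, Kank1 and Smarca2 in the 4 genotypes. Kank1 and Smarca2 are the nearest coding genes of the 53 on each side of Dmrt3. Points are libraries, and bars give the mean with its SD. The pseudogenes are lower in Dmrt3 KO and the double KO with overlap between genotypes, while Smarca2 averages 86.7 CPM both with and without Dmrt3.

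With the Dmrt3 allele, processed pseudogenes were lower across the genome. Of the 606 processed pseudogenes tested, 65 were called with the Dmrt3 allele (10.7%), all lower, and 545 lay below 0, with a median log2 change of -0.56. On chromosomes other than 19, 61 of 589 were called (10.4%), with a median of -0.55. The median of the 5 near Dmrt3 was -0.97. With the Dmrt5 allele 511 of the 606 also lay below 0, with a median of -0.34 and 5 called, and the 5 near Dmrt3 were all below 0 with a median of -0.46. Of the 109 genes called in this comparison 65 were processed pseudogenes, and 32 were coding.

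A score per library, the mean log2 deviation of the 601 processed pseudogenes outside the window, ran from -0.09 to 0.98 in the 8 libraries with Dmrt3 and from -0.85 to 0.05 in the 10 without it. It varied within genotypes as well, with WT from -0.09 to 0.98 and the double KO from -0.85 to -0.20. Over the 18 libraries the neighbours followed it, as a description of libraries that share their preparation: Pearson's r was 0.932 for Gm9493, 0.922 for Gm6563, 0.914 for Gm5822, 0.803 for Gm8825 and 0.586 for Gm10136. With this score as a covariate, Gm6563 stood at -0.28 (edgeR adjusted p = 0.331) and Gm5822 at -0.35 (adjusted p = 0.122), and neither was called. That fit was chosen after the values were seen, and it called 29.3% of all genes. The score and the Dmrt3 allele move together, and their parts in the pseudogene result cannot be told apart.

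**Figure D3:**
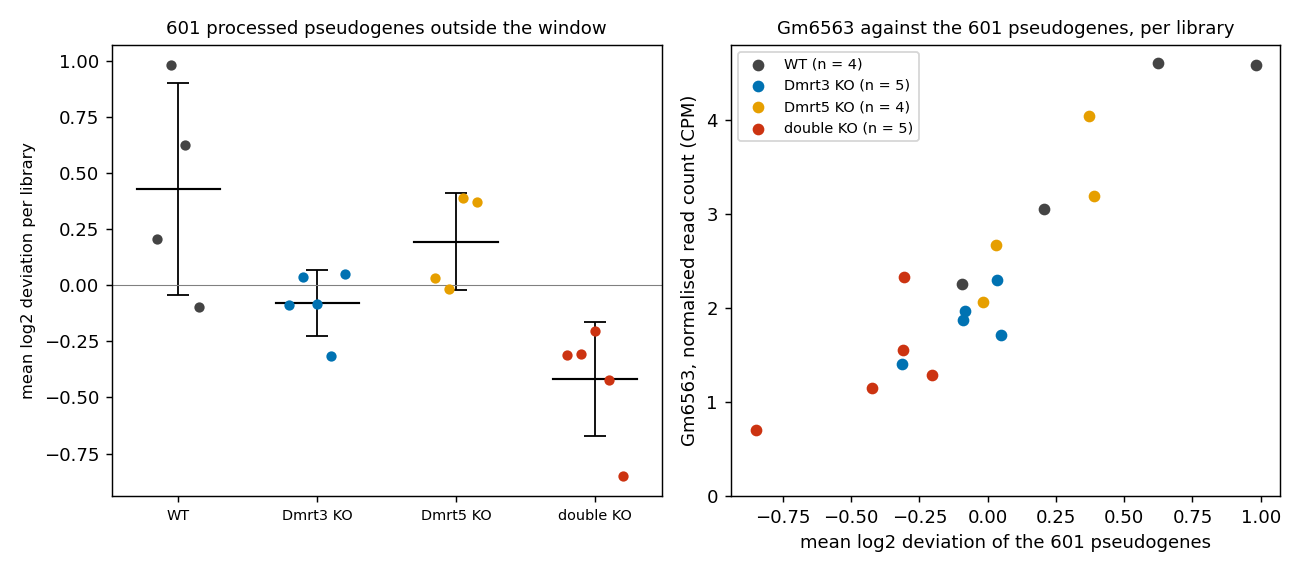
Left, the mean log2 deviation of 601 processed pseudogenes outside the window (vertical axis) for each library by genotype, with mean and SD; right, Gm6563 in CPM (vertical axis) against that mean (horizontal axis). The libraries without Dmrt3 reach at most 0.05 on the score, WT 2 is highest at 0.98 and double KO 5 lowest at -0.85, and Gm6563 follows the score with r = 0.922.

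Taken apart, the Dmrt3 allele gave few calls on either background. In Dmrt3 KO against WT edgeR called 0.0123% of tested genes, namely Dmrt3 and Dmrt1. Of the 53 neighbours 0 were called, 8 had an unadjusted p under 0.05 (15.1%, against 7.16% of all genes), and DESeq2 called 1, Gm5822. In the double KO against Dmrt5 KO edgeR called 0.333% of tested genes, 0 of the 53 neighbours were called, 10 had an unadjusted p under 0.05 (18.9%, against 4.71% of all genes), and DESeq2 called 0. In these counts 4 of the 8 and 4 of the 10 were the pseudogenes Gm6563, Gm5822, Gm9493 and Gm8825. The others were coding. In Dmrt3 KO against WT they were 4 of the 47 coding neighbours (8.51%, against 5.94% of all coding genes). In the double KO against Dmrt5 KO they were 6 of the 47 (12.8%, against 3.41% of all coding genes). The interaction, which asks whether the allele acts differently on the backgrounds, called 0.142% of genes by edgeR and 0 of the neighbours, with 7 at an unadjusted p under 0.05 (against 9.22% of all genes) and 0 by DESeq2.

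The pseudogenes moved the same way on both backgrounds and the coding neighbours mostly did not. All 5 pseudogenes were below 0 in both comparisons, as were 468 of all 606 processed pseudogenes. Of the 47 coding neighbours 15 had the same sign in both (31.9%), against 28.8% of all coding genes. Among the coding genes with the largest single values, Prkg1 was at -1.73 in Dmrt3 KO against WT and 0.70 in the double KO against Dmrt5 KO, and Klf9 at -1.26 and 0.63. 1700028P14Rik was at 0.16 and -2.24, and Trpm3 at -0.59 and -1.21. Cd274 was above 0 on both, at 0.52 and 0.72, with 0.854 to 1.41 CPM in WT, 1.2 to 2.06 in Dmrt3 KO, 0.93 to 1.51 in Dmrt5 KO and 1.23 to 2.89 in the double KO. None of these values passed the edgeR threshold, and DESeq2 called none of these 5 coding genes.

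**Figure D4:**
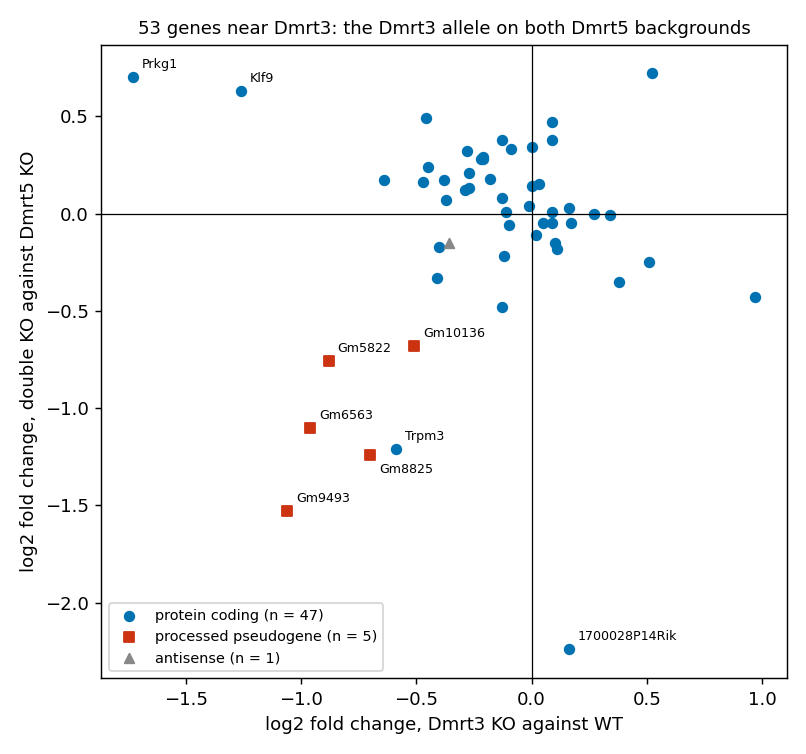
Log2 fold change in the double KO against Dmrt5 KO (vertical axis) against that in Dmrt3 KO against WT (horizontal axis) for the 53 neighbours; the axes share no library. The 5 pseudogenes (squares) lie below 0 on both axes, while 15 of 47 coding genes (circles) have the same sign on both.

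With the Dmrt5 allele, which lies on another chromosome, 5 coding neighbours of Dmrt3 were called. In the mean of Dmrt5 KO against WT and the double KO against Dmrt3 KO, edgeR called 5.35% of tested genes (2.61% higher and 2.75% lower), and 5 of the 53 neighbours (9.43%), 1 higher and 4 lower. All 5 are coding, and all lie at lower coordinates than Dmrt3, between 1579 and 2615 kb away. They were the cation channel Trpm3, the proteoglycan gene Mamdc2, 1700028P14Rik, the prenyltransferase-related gene Ptar1 and Fam189a2. Within 5 Mb of Dmrta2 itself, 6 of 65 tested genes were called (9.23%).

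Trpm3 (ENSMUSG00000052387, chr19:22139046-22995410) stood at 9.4, 3.47, 8.8 and 17.9 CPM in WT and 5.39, 8.88, 5.96, 7.13 and 5.52 in Dmrt3 KO. It stood at 2.18, 1.45, 4.15 and 2.58 in Dmrt5 KO and 0.831, 0.685, 0.578, 1.11 and 2.34 in the double KO. Only WT replicate 2 and Dmrt5 KO replicate 4 crossed over between libraries with and without Dmrt5. The log2 change was -2.24 (SE 0.32, edgeR adjusted p = 0.000206).

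Mamdc2 (ENSMUSG00000033207, chr19:23302609-23448442) stood at 3.22, 1.17, 1.69 and 3.24 CPM in WT, 1.93, 1.55, 2.4, 2.43 and 2.41 in Dmrt3 KO, 0.297, 0.705, 1.47 and 0.75 in Dmrt5 KO, and 0.391, 0.32, 0.356, 1.24 and 0.585 in the double KO. The libraries without Dmrt5 were the lower ones, with overlap between 1.17 and 1.47 CPM. The log2 change was -1.70 (SE 0.31, edgeR adjusted p = 0.00203).

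1700028P14Rik (ENSMUSG00000033053, chr19:23558753-23652812) was the 1 neighbour whose libraries with and without Dmrt5 did not overlap, against 1.13% of all tested genes. It held 0.259 to 1.33 CPM in the 9 libraries with Dmrt5 and 0 to 0.207 in the 9 without it. In the double KO that was 1, 0, 1, 2 and 0 counts per library. The fitted log2 change of -2.98 (SE 0.38, edgeR adjusted p = 8.72e-05) rests on these low counts and is imprecise in size.

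Ptar1 and Fam189a2 changed less. Ptar1 (chr19:23687429-23731668) stood at 2.15, 2.99, 4.06 and 2.49 CPM in WT, 1.67, 2.17, 2.21, 1.47 and 1.81 in Dmrt3 KO, 1.38, 1.49, 1.71 and 1.32 in Dmrt5 KO, and 1.52, 1.78, 1.96, 1.36 and 1.68 in the double KO. WT stood above the 3 mutant genotypes, with WT replicate 1 inside the range of Dmrt3 KO. Its log2 change with the Dmrt5 allele was -0.57 (SE 0.14, edgeR adjusted p = 0.0248), and the call was lost without WT 3, Dmrt3 KO 3, or Dmrt5 KO 1, 2 or 5, with adjusted p from 0.0139 to 0.065 over the 18 runs. It was also lost with no count filter (adjusted p = 0.0681) and with the pseudogene score as a covariate (-0.44, adjusted p = 0.0988). Fam189a2 (chr19:23972750-24031019) stood at 2.49 to 3.98 CPM in WT, 2.78 to 4.15 in Dmrt3 KO, 3.75 to 5.1 in Dmrt5 KO and 5.58 to 6.76 in the double KO. It was the 1 neighbour called higher with the Dmrt5 allele, by 0.60 (SE 0.12, edgeR adjusted p = 0.00434), while 25 of the 53 lay above 0. For Fam189a2 the double KO did not overlap any other genotype. Of all 16236 tested genes, 969 had no overlap between the double KO and WT, 779 between it and Dmrt3 KO, and 288 between it and Dmrt5 KO.

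Markers of some cell types followed these genes more closely than those of others. Of the 5 choroid plexus markers (Ttr, Kcne2, Folr1, Clic6 and Otx2), 4 were called lower with the Dmrt5 allele, with a median log2 change of -3.10. They summed to 143 to 342 CPM in WT, 153 to 418 in Dmrt3 KO, 71.2 to 90 in Dmrt5 KO and 59.1 to 127 in the double KO. In the libraries without Dmrt5, Ttr reached at most 10.1 CPM and Kcne2 at most 0.391. The other markers therefore made up most of the sum there, and the sum is not a plain measure of choroid plexus content. Over the 18 libraries the rank correlation with that sum was 0.81 for Trpm3, 0.804 for Mamdc2, 0.877 for 1700028P14Rik, 0.558 for Ptar1 and -0.639 for Fam189a2. With the summed cortical progenitor markers it was 0.785 for Trpm3, 0.707 for Mamdc2, 0.818 for 1700028P14Rik, 0.562 for Ptar1 and -0.771 for Fam189a2. With the 6 mesenchyme markers it was 0.742 for Mamdc2 and -0.773 for Fam189a2, and with the 4 endothelium markers 0.754 and -0.738. For Trpm3, 1700028P14Rik and Ptar1 it ran from 0.228 to 0.581 with mesenchyme and from 0.0444 to 0.554 with endothelium markers. Over all 5 genes it ran from -0.412 to 0.288 with cortical neuron markers. With microglia markers it ran from -0.16 to 0.225 and with erythroid markers from -0.16 to 0.332. Of the 5 progenitor markers 3 were called lower and 2 higher with the Dmrt5 allele, of the 4 cortical neuron markers 3 were called lower, and of the mesenchyme and endothelium markers edgeR called 0. The correlations are descriptions over libraries in which both quantities differ by genotype. The part of cell type content in these results was not tested.

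**Figure D5:**
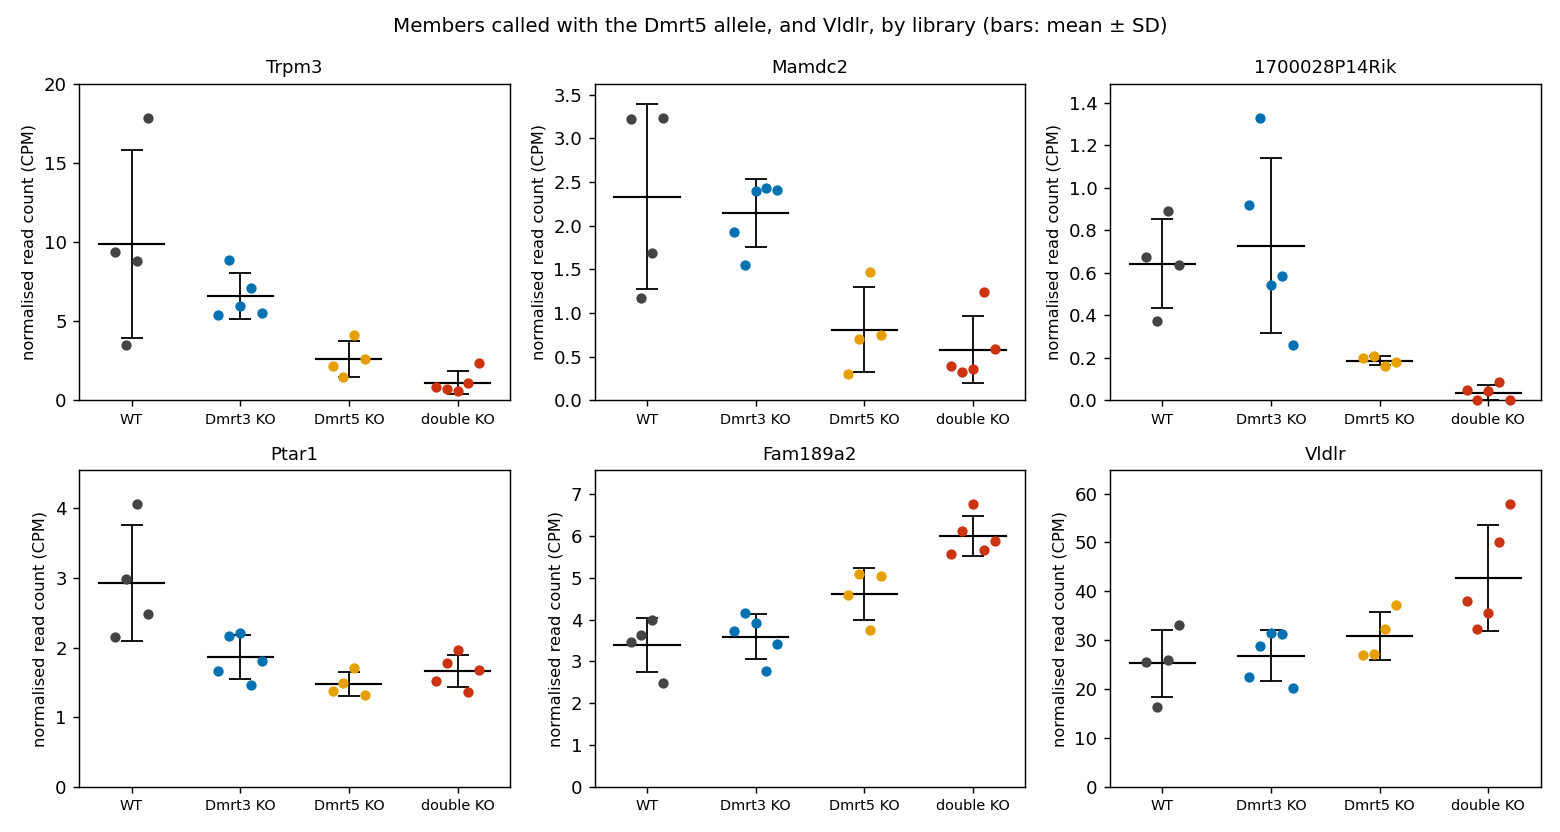
Normalised read count (CPM, vertical axis) of the 5 neighbours called with the Dmrt5 allele and of Vldlr in the 4 genotypes; points are libraries, and bars give the mean with its SD. Trpm3, Mamdc2 and 1700028P14Rik are low in Dmrt5 KO and the double KO, Ptar1 is highest in WT, and Fam189a2 and Vldlr are highest in the double KO.

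On single backgrounds the Dmrt5 allele gave part of this list. In Dmrt5 KO against WT edgeR called 1.03% of tested genes (0.69% lower) and 1 neighbour, Ptar1, lower at -0.98 (SE 0.22, adjusted p = 0.0349), and that call was lost without WT 3 or 4, Dmrt3 KO 3, or any 1 of the Dmrt5 KO libraries. Trpm3 was at -1.93 (SE 0.46, adjusted p = 0.0526) there, and it was called without double KO 4 or 5. In the double KO against Dmrt3 KO edgeR called 3.7% of tested genes (1.74% higher and 1.96% lower) and 4 neighbours: Trpm3, Mamdc2 and 1700028P14Rik lower and Fam189a2 higher.

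The double KO differed most from WT. EdgeR called 6.23% of tested genes (2.42% higher and 3.81% lower) and 10 of the 53 neighbours (18.9%), 8 lower and 2 higher. The 10 were the 5 genes of the Dmrt5 allele, the pseudogenes Gm9493, Gm6563, Gm8825 and Gm5822, and Vldlr. Over all processed pseudogenes 28.2% were called in this comparison. With the pseudogene score as a covariate, 6 of these 10 calls were lost: Gm9493 moved from -2.14 to -0.28, Gm6563 from -1.36 to -0.25, Gm8825 from -1.64 to -0.81, Gm5822 from -1.26 to -0.57, Vldlr from 0.76 to 0.18 and Ptar1 from -0.81 to -0.42, with edgeR adjusted p from 0.0831 to 0.642. Trpm3, Mamdc2, 1700028P14Rik and Fam189a2 kept theirs. The score did not overlap between WT (-0.09 to 0.98) and the double KO (-0.85 to -0.20). This fit therefore cannot separate the score from the genotypes, and nothing is concluded from the calls lost or kept. This comparison shares its libraries with those above and is not independent of them. Vldlr (ENSMUSG00000024924, chr19:27216484-27254231) stood at 25.6, 16.4, 25.9 and 33.1 CPM in WT, 22.4, 28.9, 31.4, 31.2 and 20.2 in Dmrt3 KO, 26.9, 27.1, 32.3 and 37.2 in Dmrt5 KO, and 38.1, 32.2, 35.5, 50 and 57.8 in the double KO. It was higher in the double KO than in WT by 0.76 (SE 0.21, edgeR adjusted p = 0.0408), and this call was lost without WT 1, 2 or 3, Dmrt3 KO 2, Dmrt5 KO 4, or double KO 1, 4 or 5, with adjusted p from 0.0214 to 0.117. Ptar1 was at -0.81 (SE 0.20, adjusted p = 0.0202), a call lost without WT 3 and with no count filter (-0.78, adjusted p = 0.0569).

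The promoters of the neighbours were searched for the core letters of a DMRT binding site, ACANTGT, which reads the same on both strands. A RefSeq promoter (GRCm38.p6, 300 bases around the start) was given for 41 of the 53 neighbours, and 2 of the 41 (4.88%) held the letters, Tmem252 and 4430402I18Rik. Over all genes with a promoter the share was 8.62%. Neither was called in any of the 8 comparisons. Tmem252, which codes for a small membrane protein, had a Dmrt3 allele value of 0.13 (SE 0.13). That is the mean of 0.51 (SE 0.18) in Dmrt3 KO against WT and -0.25 (SE 0.18) in the double KO against Dmrt5 KO.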

How the data were processed

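RNeasy columns were used to extract RNA from dissected cortical tissue, and a TruSeq RNA v2 kit, which does not mark strand, to make libraries, per the labels' protocols. The authors deposited raw read counts per Ensembl gene with no normalisation. The submitters' processing notes name mm10 and, without roles, STAR 2.3.0e, featureCounts 1.4.6-p1, FastQC 0.10.1, CASAVA 1.8.2 and DESeq2 1.8.2. The sources used here do not give the annotation, the strand setting or how reads with several matches were treated. Symbols and coordinates came from GENCODE M21 (GRCm38), which matched 36602 of 38355 identifiers. The others held 0.397% of counts.

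The main test was edgeR 4.0.16 under R 4.3.3 (filterByExpr, TMM scaling, glmQLFit and glmQLFTest, two-sided), with all 18 libraries and 1 mean per genotype. The p-values were adjusted over 16236 tested genes by the Benjamini-Hochberg method, with a threshold of 0.05. Log2 values for scores used a prior count of 2. Errors are the SE of the fitted log2 change or the SD over libraries. Pseudogene transcripts were aligned to all GENCODE transcripts with BLAST 2.17.0. The fit was tested on simulated data. Named genes were the Dmrt genes, all neighbours called with the Dmrt3 allele, the 4 nearest on each side, up to 3 per role group with the lowest Dmrt3 allele p and the 4 with the lowest Dmrt5 allele p. Other genes named, such as the 3 remaining pseudogenes, their coding genes and hosts, were chosen after their values were seen. The neighbours and lists were chosen with earlier results of these data known. Alternatives were RLE scaling, DESeq2 1.42.0, other count filters, a replicate block, a covariate for the slope of each library's values on log2 gene length, a 2.5 Mb window, fits of the compared genotypes only, leaving out each library and, added later, the pseudogene score covariate.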

Additional observations from a re-analysis of the deposited data

Results flagged for a closer look

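Among 124 genotype groups of the named genes, 8 held a library far from the rest of its group, where chance gives about 1 in 20. Prkg1 reached 5.7 CPM in WT replicate 4, with the next WT library at 0.889. Dmrta2 stood at 25.1 CPM in Dmrt5 KO replicate 1, with the next at 6.94. In the same library Glis3 was lowest at 6.23 CPM (next 8.97) and Gldc lowest at 90.4 (next 104). Mamdc2 reached 1.24 CPM in double KO replicate 4 (next 0.585), and Ak3 was highest there at 111 (next 92.6). Ak3 was also highest in Dmrt3 KO replicate 5 at 107 CPM (next 95.7), and Pip5k1b in WT replicate 2 at 5.82 (next 5.11).

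For Dmrt1 the change with the Dmrt3 allele differed between the Dmrt5 backgrounds by the interaction term of -1.50 on the log2 scale (SE 0.27, edgeR adjusted p = 0.0265). Dmrt1 rose in Dmrt3 KO against WT. In the double KO it stood at 2.45 to 3.91 CPM, which overlapped WT at 2.55 to 4.22.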

How the results depend on the processing

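The number of neighbours called with the Dmrt3 allele was 2. It stayed at 2 with RLE scaling, with a replicate block and with the count filters, and was 3 with DESeq2. It was 5 with the length slope as covariate, 9 with the pseudogene score as covariate and 1 in a window of 2.5 Mb, and ran from 1 to 4 when 1 library was left out. The pseudogene score fit called a large share of all genes, as given above, so its 9 is not a result about the neighbours. Under the pseudogene score Rcl1 turned from -0.04 to 0.37 (edgeR adjusted p = 0.0462). For Dmrt3 KO against WT the count was 0, with 1 by DESeq2, 2 with the length slope and 19 with the pseudogene score. For the double KO against Dmrt5 KO it was 0, with 1 with the length slope. Fits of only the 2 genotypes compared also gave 0 for both. For Dmrt5 KO against WT it was 1, with 3 by DESeq2, 0 without a count filter, 3 with the replicate block, 2 with the length slope, 4 with the pseudogene score and 0 to 2 when 1 library was left out. The cause of these differences was not tested. Most of these counts are given without the share of all genes called, so they do not describe the neighbours alone. The counts for the interaction, the Dmrt5 allele, the double KO against Dmrt3 KO and the double KO against WT stayed within 1.5 times under every alternative run, but with the pseudogene score the 14 genes called in the double KO against WT held 4 of the 10 called without it. Same-numbered libraries correlated with a median r of 0.24 over 24 pairs (from -0.357 to 0.703), against -0.14 over 97 pairs with other numbers. Not every same-numbered pair correlated above 0.1, so the numbers were not taken as pairs. The replicate block called 90 genes with the Dmrt3 allele in place of 109. Depth limits the 9 neighbours under 1 CPM in WT.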
